A study of Mus musculus with 4 samples.

Results

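Which genes tell the response of intestinal cells to fibroblast growth factor 2 (FGF2) apart from their response to interleukin-17A (IL-17A) was read from a direct comparison of 2 expression arrays, FGF2 minus IL-17A. The FGF2 array had the higher signals for the metalloproteinases Mmp3, Mmp9, Mmp10 and Mmp13, the cytokine Il11 and the hyaluronan-degrading protein Cemip. The IL-17A array had the higher signals for the chemokines Cxcl5 and Cxcl1, the antimicrobial and acute phase genes Saa3, Lcn2 and Pigr, and the small proline-rich genes Sprr2d, Sprr2f and Sprr2h. A further set, with Agt, Dpt, Igf1 and Adamdec1, was low with FGF2 and near the untreated level with IL-17A. Of 18193 genes on the arrays, 11918 were over a floor for low signals on at least 1 of the 2 arrays and are called measured. The genes described in depth are the 171 that differed by at least 2-fold.

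The series holds 4 Affymetrix arrays of mouse primary intestinal epithelial cells, 1 per group. The groups were untreated cells, cells given IL-17A at 50 ng/ml for 6 h, cells given FGF2 at 5 ng/ml for 6 h, and cells given both at these doses for 6 h. All groups came from isolated crypts that were seeded onto a fibronectin coating and grown in DMEM with serum, insulin and antibiotics. Mouse strain, age, the number of animals behind an array and the culture time of the untreated cells were not given in the sources used here. With 1 array a side there is no replicate error and no test, so every difference below compares these arrays. In bulk RNA, fewer cells of a type and less RNA per cell cannot be told apart.

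IL-17A is a cytokine of T helper 17 cells and innate lymphocytes. It binds a receptor of IL-17RA and IL-17RC, and the adaptor Act1 passes the signal to NF-kB and C/EBP factors and slows the decay of inflammatory mRNAs. Epithelium answers with chemokines and antimicrobial proteins. FGF2 binds receptor tyrosine kinases that drive the ERK pathway, which acts through ETS and AP-1 factors and is held back by its own targets, among them sprouty proteins and dual-specificity phosphatases. FGF2 is known for its part in tissue repair.

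Of the 11918 measured genes, 47 (0.394%) were at least 2-fold higher with FGF2 than with IL-17A and 124 (1.04%) at least 2-fold lower, 171 (1.43%) in all. The lower side held more genes and the largest folds. The median fold of the 47 genes was 2.60 and the largest 4.77 (Ramp3), while the 124 genes had a median of 2.44 and a largest fold of 10.5 (Saa3). On 1 of the arrays the signal was at the floor (signal 89.8, log2 6.49) for 7 of the 47 and 19 of the 124, and their folds are lower bounds. Just inside the 2-fold threshold lay Cd14, Krba1 and Tgfb1 (log2 ratios 1.002, 1.013 and 1.019) and Sema3e, Uox and Hs3st1 (-1.003, -1.005 and -1.016). Just outside lay H2-M9, Acot12 and Adgrg3 (0.995, 0.987 and 0.987) and Tmem229b, Otulinl and Nckipsd (-0.999, -0.996 and -0.993), so the boundary splits genes with nearly equal ratios. With no fold required, the ratio was above 0 for 6068 of the measured genes and below 0 for 5850. Every gene list below is to be read beside these counts and the shares of 0.394% and 1.04%.

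**Figure D1:**
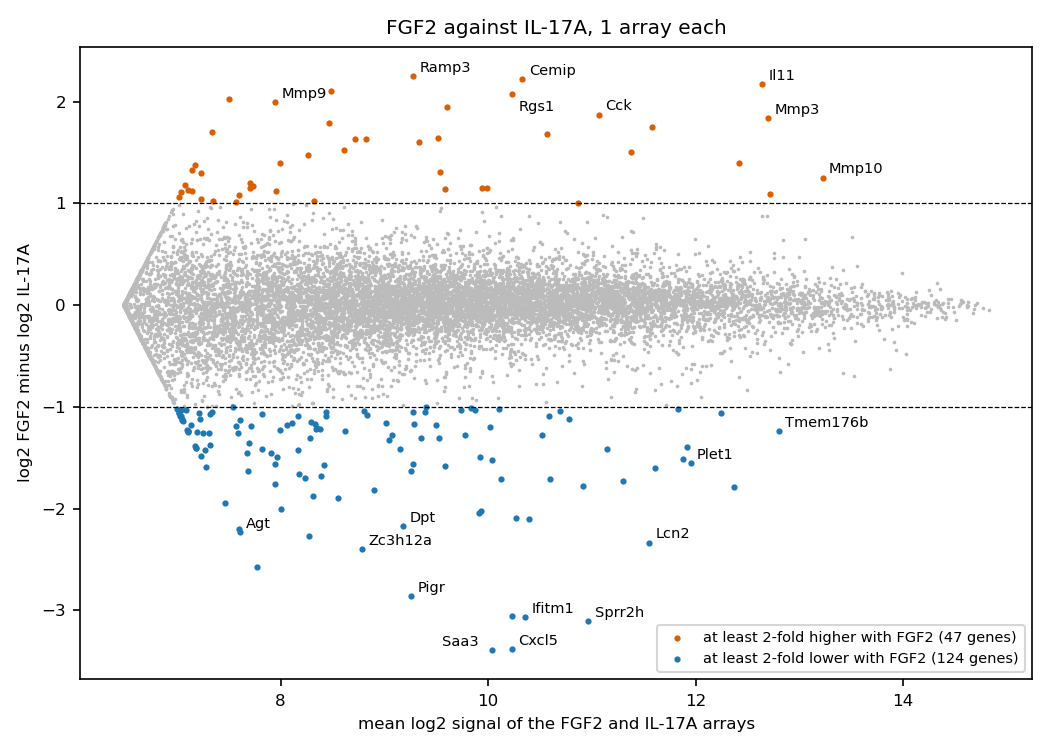
Each point is 1 of the 11918 measured genes, with the mean log2 signal of the FGF2 and IL-17A arrays on the horizontal axis and log2 FGF2 minus log2 IL-17A on the vertical axis; dashed lines mark 2-fold. Orange points are the 47 genes at least 2-fold higher with FGF2, blue points the 124 at least 2-fold lower, and the slanted edges at the left come from signals raised to the floor.

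As a yardstick of error, the difference between the readings of each factor's effect from separate pairs of arrays was used. Its 99th percentile, on the scale of a log2 ratio, was 0.83 below a mean log2 signal of 8, 0.62 between 8 and 10, 0.39 between 10 and 12 and 0.30 above that. It holds true interaction of the factors as well as noise, and for dim genes the floor lowers it. With no fold required, 309 higher and 433 lower genes lay past it. The 171 genes lie past it by their choice, since 2-fold exceeds each of these values. Of the 171 genes, 11 higher and 45 lower ones had other probe sets over the floor. These had the same sign throughout for 10 of the 11 and 41 of the 45, the exceptions being Tgfb1, Kcnh3, Mylk, Nfkbiz and Pkdcc. Across measured genes the 2 arrays correlated at r = 0.984, a description over genes that are not independent. For Actb, the control probe set at the 3' end read 1.19 times the 5' one with IL-17A and 1.18 times with FGF2. The mean log2 signal of 12 probe sets for bacterial control RNAs was 9.69 and 8.79, the lowest of the 4 arrays with FGF2. Whether this bears on any gene was not tested.

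The label of the cells was set against marker genes. All 16 general epithelial markers (among them Epcam, Cdh1, Krt8 and Vil1) were measured, with a summed signal of 186414 with IL-17A and 191171 with FGF2. Markers of fibroblasts and smooth muscle were also measured, 22 of 23, with summed signals of 136343 and 109035. All 15 endothelial markers were measured (12727 and 17398), 12 of 14 macrophage markers (5759.5 and 6435), and only 2 of 12 lymphocyte markers. The higher macrophage sum with FGF2 came from Cd14 alone (1318 and 2640), as the other 11 measured markers were lower with FGF2. Of 12 stem and crypt markers, 8 were measured (13979.5 and 14249.8). The others, Lgr5, Ascl2, Olfm4 and Tnfrsf19, were at the floor on both arrays. Beside epithelial genes, the arrays thus measured stromal and endothelial genes.

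The untreated array shows from which side each gap came. Of the 47 genes higher with FGF2, 35 were at least 1.5-fold above untreated with FGF2 and within 1.5-fold of it with IL-17A. Both factors were above untreated for 5 (Cd14, Sptssb, Il11, Cemip and Ramp3), and FGF2 was within and IL-17A below for 5 (Krba1, Ung, Golga7b, Pkp1 and Tcl1b3). Cyp3a11 was below untreated with both, and Csn3 within 1.5-fold with both. Of the 124 genes lower with FGF2, 71 were below untreated with FGF2 and within 1.5-fold of it with IL-17A, and 37 were within with FGF2 and above with IL-17A. Another 13 went opposite ways, below untreated with FGF2 and above it with IL-17A, Cxcl1 and Il6 were above with both, and Sema3e was within with both. The 2 arrays are set here against the same untreated array, so an error in that array enters both readings. The 71 genes that were low with FGF2 were the largest class of the 171.

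**Figure D2:**
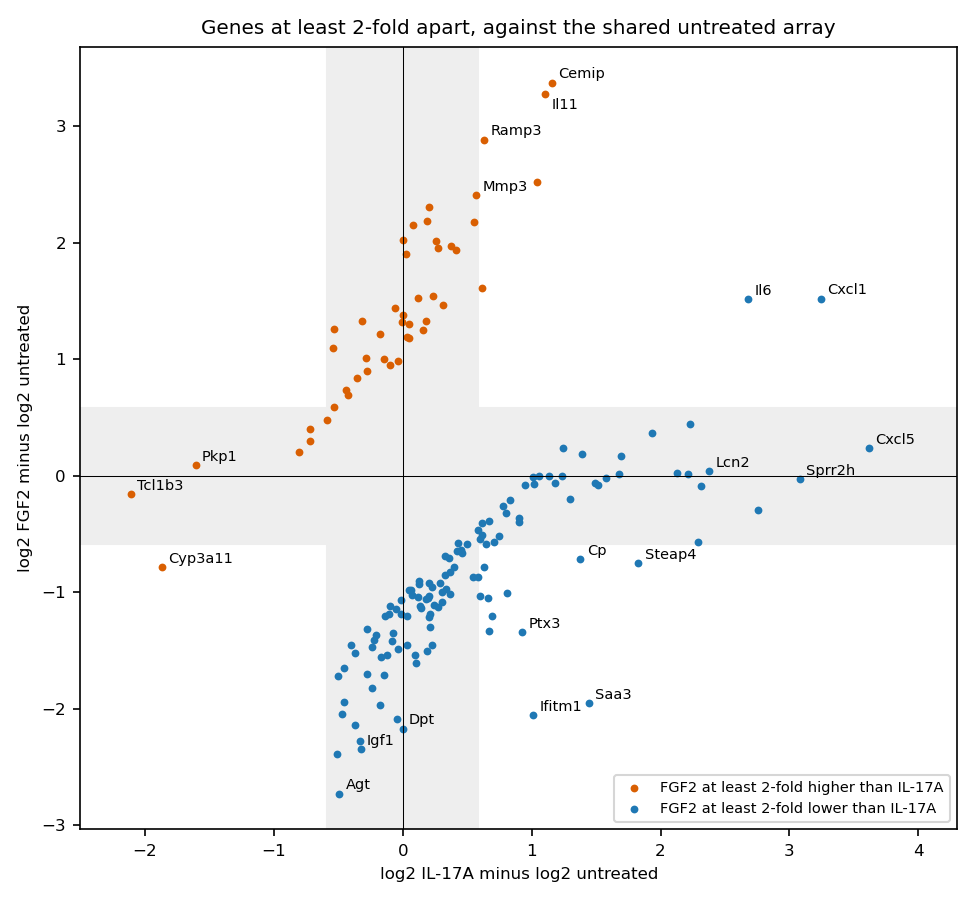
Each point is 1 of the 171 genes, with log2 IL-17A minus log2 untreated on the horizontal axis and log2 FGF2 minus log2 untreated on the vertical axis; the grey bands span 1.5-fold either way of the shared untreated array. Most orange points (higher with FGF2) stand above the horizontal band, most blue points (lower with FGF2) below it or to the right of the vertical band, and Saa3, Ifitm1, Steap4, Ptx3 and Cp lie in the lower right quadrant.

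Among the 47 genes higher with FGF2, secreted metalloproteinases were among the brightest. Mmp3 (stromelysin-1) read 2373 untreated, 3529 with IL-17A, 12604 with FGF2 and 16516 with both, 3.57-fold higher with FGF2 than with IL-17A. Mmp10 (stromelysin-2), the brightest of the 47, read 6006 untreated, 6204 with IL-17A, 14775 with FGF2 and 18448 with both (2.38-fold). Mmp13 (collagenase-3) read 1398 untreated, 1674 with IL-17A, 5639 with FGF2 and 9027 with both (3.37-fold). In all 3 genes the FGF2 and combined arrays stood above the untreated and IL-17A arrays, and the combined array was the highest. Mmp9 (gelatinase B), dim on the arrays without FGF2, read 109 untreated, 124 with IL-17A, 494 with FGF2 and 952 with both (3.99-fold). Its second probe set was at the floor with IL-17A and had a log2 ratio of at least 0.74. Of the 20 measured members of the list of metalloproteinases and inhibitors, 12 had a ratio above 0 and 8 below, 4 were at least 2-fold higher (0.394% of all measured genes) and 3 at least 2-fold lower (1.04%), and the median was 0.16, against 0.01 over all measured genes.

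The promoters of Mmp3, Mmp10 and Mmp13 are shown because these neighbours on chromosome 9 were high together with FGF2 and each holds the AP-1 motif TGANTCA close to its start. The stretches are the 150 bases before the gene start on the plus strand, chr9:7445672-7445821, chr9:7502192-7502341 and chr9:7272364-7272513, from RefSeq on GRCm38.p6, with the motif in capitals.
Mmp3: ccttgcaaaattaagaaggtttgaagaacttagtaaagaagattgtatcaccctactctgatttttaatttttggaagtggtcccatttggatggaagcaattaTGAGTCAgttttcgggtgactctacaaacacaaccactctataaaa
Mmp10: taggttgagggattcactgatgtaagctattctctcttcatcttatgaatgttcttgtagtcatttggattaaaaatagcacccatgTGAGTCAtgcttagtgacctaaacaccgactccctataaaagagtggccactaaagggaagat
Mmp13: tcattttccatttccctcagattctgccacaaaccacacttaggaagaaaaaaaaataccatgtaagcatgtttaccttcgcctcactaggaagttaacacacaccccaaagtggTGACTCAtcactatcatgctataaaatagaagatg
The match ends 40 bases before the start in Mmp3, 57 in Mmp10 and 29 in Mmp13. The motif reads the same on both strands. It was found in the 250 bases before the start in 6.75% of all 32851 promoters of the table. A match is a description of the letters and not of binding.

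The chromosome 9 cluster did not differ as a block. Between Mmp13 and Mmp3, Mmp12 (macrophage elastase) had a ratio of 0.31, and Mmp8 (neutrophil collagenase), next to Mmp10, had 0.03. Mmp7 (matrilysin), the last measured gene of the cluster and a Paneth cell product, had a ratio of -1.45, with signals of 265 untreated, 398 with IL-17A, 146 with FGF2 and 241 with both. Mmp7 was thus highest with IL-17A and lowest with FGF2. Mmp1a, Mmp1b and Mmp20 were at the floor on all arrays. Outside the cluster, Mmp23 (-1.38) and Adamdec1 (-1.79), a metalloproteinase-like enzyme of the gut, were also lower with FGF2. The clusters described here were picked after the values had been seen.

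Several further genes with higher signals with FGF2 encode secreted proteins. Il11, a cytokine of the IL-6 family that acts through gp130, read 1404 untreated, 3016 with IL-17A, 13544 with FGF2 and 15869.7 with both (4.49-fold). It was above untreated with each factor, but far more with FGF2. Cemip, which degrades hyaluronan, followed the same order with 268 untreated, 598 with IL-17A, 2777 with FGF2 and 4382 with both (4.65-fold). Bmp2, a growth factor of the TGF-beta family, read 4144 untreated, 4633 with IL-17A, 9856 with FGF2 and 9508 with both (2.13-fold), high on both arrays with FGF2 and level on the others. Epgn, a ligand of the EGF receptor, read 173 untreated, 230.1 with IL-17A, 662 with FGF2 and 582 with both (2.88-fold). Of the 11 measured genes of EGF family ligands and receptors, 7 had a ratio above 0. Epgn alone passed 2-fold (0.394% of all measured genes were at least 2-fold higher). Stc1, the secreted glycoprotein stanniocalcin 1, read 702 untreated, 847 with IL-17A, 2722 with FGF2 and 2967 with both (3.21-fold). In each of these genes the combined array stood near or above the FGF2 array.

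Ramp3, Cck, Rgs1 and Aplnr were also among the 15 genes furthest apart on this side. Ramp3, a partner protein of the receptors for adrenomedullin and related peptides, had the largest fold, 4.77-fold, with 184 untreated, 285 with IL-17A, 1357 with FGF2 and 1099 with both. Cck, the hormone cholecystokinin, read 1099.8 untreated, 1122 with IL-17A, 4103 with FGF2 and 3738 with both (3.66-fold). Of the 13 measured enteroendocrine markers Cck alone passed 2-fold (0.394% of all measured genes were at least 2-fold higher). The median over the 13 was -0.07. Rgs1, a regulator of G protein signalling, read 557 untreated, 588 with IL-17A, 2470.2 with FGF2 and 2129 with both (4.20-fold). Aplnr, the receptor of apelin, read 517 untreated, 416 with IL-17A, 1295 with FGF2 and 1439.7 with both (3.11-fold). For Cck, Rgs1 and Aplnr the untreated and IL-17A arrays were close and both arrays with FGF2 were high.

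Other genes furthest apart in this direction have no common role. Slc14a1, a urea transporter, was at the floor without FGF2 and read 365 with FGF2 and 339 with both (at least 4.07-fold). Hao1, a hydroxyacid oxidase, read 275 untreated, 190 with IL-17A, 657 with FGF2 and 530.4 with both (3.46-fold). Mmd, a membrane protein named for macrophage differentiation, read 3094 untreated, 3366 with IL-17A, 8885 with FGF2 and 8318 with both (2.64-fold), and its other 2 probe sets had the same sign. Trbv1, a variable segment of the T cell receptor, had a ratio of 2.11, from a probe set that can detect related sequences. Tcl1b3 (1.95, from such a probe set too) and Pkp1, a desmosome protein (1.70, with IL-17A at the floor), were low with IL-17A. Tcl1b3 read 1701 untreated, 395 with IL-17A, 1525 with FGF2 and 1015 with both, so its FGF2 array stayed near untreated.

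Feedback genes of the ERK pathway had mostly small positive ratios, and its receptors and adaptors did not. Of the 20 measured members of the list of FGF and ERK feedback genes, 18 had a ratio above 0 and 2 below, with a median of 0.19. At least 2-fold higher was 1 of the 20, where 0.394% of all measured genes were. That gene was Etv4, an ETS factor, with 122 untreated, at the floor with IL-17A, 203 with FGF2 and 211 with both (at least 2.26-fold). Spry4, a sprouty inhibitor of the pathway, had a ratio of 0.71, Dusp4, a phosphatase of ERK, had 0.47, and Dusp6 had -0.04. Of the 21 immediate early transcription factors, 15 were above 0 and 1 was at least 2-fold higher (0.394% of all measured genes). This was Nr4a2, an orphan nuclear receptor (455 untreated, 515 with IL-17A, 1139 with FGF2 and 974 with both). Of the 22 measured FGF ligands, receptors and signalling genes, 8 were above 0 and 14 below, with a median of -0.07 and a range of -0.70 to 0.84, and none passed 2-fold.

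Genes of arginine and prostaglandin metabolism leaned the same way, with 11 of 16 above 0 and a median of 0.16. At least 2-fold higher were 2 of the 16, where 0.394% of all measured genes were. Arg2, the mitochondrial arginase, read 176 untreated, 258 with IL-17A, 796 with FGF2 and 1458 with both (3.09-fold). Ptger2, a receptor of prostaglandin E2, read 532 untreated, 661 with IL-17A, 1472 with FGF2 and 1434 with both (2.23-fold). Ptges, which makes prostaglandin E2, stayed just under the threshold (0.96). Of the 19 measured genes listed for plasminogen activation, hyaluronan and wound matrix, 15 were above 0, with a median of 0.32. This list also counts Ptges and Ptgs2 (0.38), which are in the list above too. Cemip was the only member past 2-fold (0.394% of all measured genes were at least 2-fold higher). Plat, the tissue plasminogen activator, was lower with FGF2 (-0.70), while Has2, a hyaluronan synthase, was higher (0.69).

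**Figure D3:**
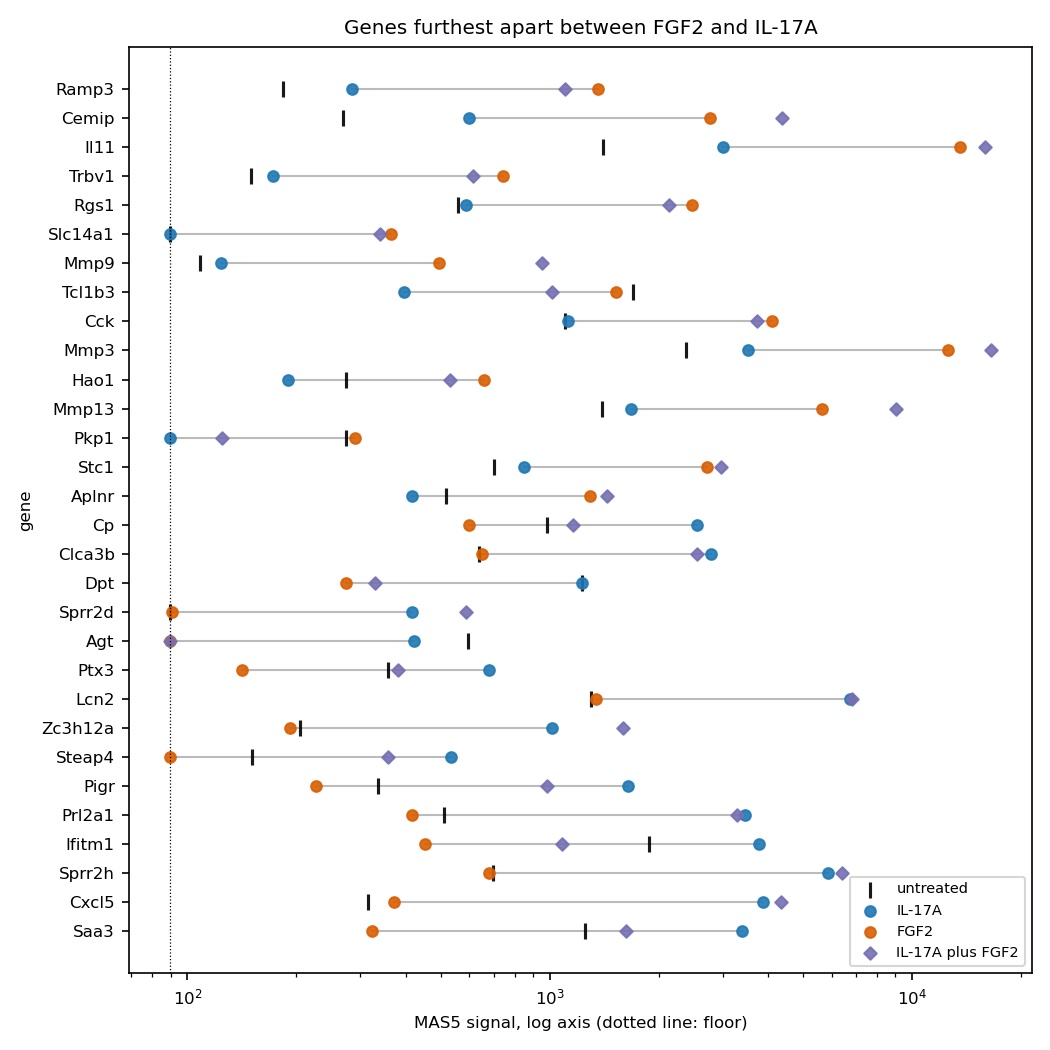
MAS5 signal on a log axis of the 15 genes with the highest and the 15 with the lowest ratio of FGF2 to IL-17A (among genes whose other probe sets have the same sign), on each of the 4 arrays, with grey lines joining IL-17A and FGF2 and a dotted line at the floor. For most genes of the upper block, such as Cck and Rgs1, the untreated mark lies near IL-17A, and for Cxcl5, Sprr2h and Lcn2 in the lower block it lies near FGF2.

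Chemokines were among the genes higher with IL-17A. Of 13 measured chemokines for neutrophils and monocytes, 11 had a ratio below 0 and 2 above, with a median of -0.47, and 5 were at least 2-fold lower with FGF2, where 1.04% of all measured genes were. Cxcl5, a ligand of the neutrophil receptor CXCR2, read 315 untreated, 3878 with IL-17A, 373 with FGF2 and 4362 with both and was 10.4-fold lower with FGF2. Its FGF2 array stayed near the untreated level. Cxcl1, another CXCR2 ligand, read 484 untreated, 4587 with IL-17A, 1387 with FGF2 and 11943 with both (3.31-fold, from a probe set that can detect related transcripts), so FGF2 alone was also above untreated. The monocyte chemokines Ccl2 and Ccl7 had ratios of -1.03 and -1.20, and Ccl20, the CCR6 ligand, was over the floor with IL-17A alone (197, at least 2.19-fold). Cxcl3 and Cxcl2, in the same chromosome 5 cluster as Cxcl5 and Cxcl1, did not reach 2-fold. Cxcl3 was lower with FGF2 too (-0.51), and Cxcl2 had a ratio of 0.22. Cxcl2 read 232 untreated, 969 with IL-17A, 1130.1 with FGF2 and 6656 with both, so both single factors stood above untreated by similar amounts.

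The stretch before Cxcl1 is shown for the NF-kB consensus, which it matches on both strands in overlapping letters. It covers the 150 bases before the start, chr5:90891095-90891244 on the plus strand (RefSeq, GRCm38.p6), with the consensus in capitals.
Cxcl1: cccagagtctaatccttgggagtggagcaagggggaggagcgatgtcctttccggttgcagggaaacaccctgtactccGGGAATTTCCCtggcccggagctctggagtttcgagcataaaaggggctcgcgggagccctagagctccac
The consensus spans bases 71 to 61 before the start. It was found in 7.25% of all promoters of the table.

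Other cytokines and the genes that damp NF-kB signalling were split. Il6 read 146 untreated, 937 with IL-17A, 417 with FGF2 and 3491 with both (2.25-fold lower with FGF2), above untreated with each factor and highest with both. Of 13 measured cytokines and colony-stimulating factors, 10 were below 0, with a median of -0.21, and Il11 stood at the other end (2.17). Zc3h12a (Regnase-1), a nuclease that degrades inflammatory mRNAs, read 204 untreated, 1013 with IL-17A, 192 with FGF2 and 1595 with both (5.28-fold). Nfkbiz, an atypical inhibitor protein that co-activates IL-17A targets, read 1901 untreated, 5447 with IL-17A, 1794 with FGF2 and 5565 with both (3.04-fold). Its probe sets disagreed, with ratios of -1.60, -1.17 and 0.37. Over the 16 measured genes of NF-kB feedback and mRNA decay the median was -0.11, with 7 above 0 and 9 below, and Nfkbia, the classical inhibitor, had -0.10. Genes of IL-17 receptor signalling, which include receptor chains, adaptors, kinases and C/EBP factors, differed little. The median of 14 was -0.03, and the range was -0.52 (Arid5a) to 0.22 (Traf2).

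Antimicrobial and acute phase genes included Saa3, which had the largest fold of all. Of 17 measured, 12 were below 0 and 5 above, with a median of -0.40, and 7 were at least 2-fold lower with FGF2, where 1.04% of all measured genes were. Saa3, serum amyloid A3, read 1249 untreated, 3397 with IL-17A, 323 with FGF2 and 1627 with both (10.5-fold). It was highest with IL-17A, below untreated with FGF2, and in between with both. Lcn2, lipocalin 2, which binds bacterial siderophores, read 1300.4 untreated, 6751 with IL-17A, 1339 with FGF2 and 6843 with both (5.04-fold), with the untreated and FGF2 arrays level and the other two level. Pigr, the receptor that carries IgA across the epithelium, read 337 untreated, 1647 with IL-17A, 227 with FGF2 and 986 with both (7.25-fold), and its second probe set had a ratio of -2.78. Steap4, a metalloreductase, read 151 untreated, 535 with IL-17A, at the floor with FGF2 and 357 with both (at least 5.96-fold). Reg3g (-1.24), Lbp (-1.21) and Duoxa2 (-1.02) completed the 7, the first and last of these with FGF2 at the floor. S100a8, a calcium-binding protein of myeloid and stressed epithelial cells, went the other way (0.91), with 419 untreated, 717 with IL-17A, 1348 with FGF2 and 3740.1 with both.

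The promoters of Lcn2 and Saa3 are shown for the C/EBP motif TTNNGNAA, which is common: 36.8% of all promoters of the table hold it in these 250 bases. Lcn2 has it in 1 place and Saa3 in 4. The stretches run from 10 bases before the farthest match to the start, chr2:32387740-32387965 and chr7:46715677-46715902, both on the minus strand (RefSeq, GRCm38.p6), with matches on either strand in capitals.
Lcn2: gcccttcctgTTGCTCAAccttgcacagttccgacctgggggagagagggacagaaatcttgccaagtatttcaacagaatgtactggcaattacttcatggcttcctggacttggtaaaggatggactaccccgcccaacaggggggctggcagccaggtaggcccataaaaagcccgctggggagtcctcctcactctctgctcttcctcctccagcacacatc
Saa3: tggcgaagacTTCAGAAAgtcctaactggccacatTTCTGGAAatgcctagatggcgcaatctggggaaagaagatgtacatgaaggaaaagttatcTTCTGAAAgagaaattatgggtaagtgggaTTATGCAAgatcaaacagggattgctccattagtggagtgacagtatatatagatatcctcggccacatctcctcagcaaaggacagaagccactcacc
The NF-kB consensus was not found in these windows, which says only that its letters are not there.

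The small proline-rich genes, precursors of the cornified envelope, were separated within 1 subfamily. Of 7 measured genes of the small proline-rich and cornified envelope list, 6 were below 0. At least 2-fold lower with FGF2 were 3 (1.04% of all measured genes), all 3 of them Sprr2 genes. The 7 include the other envelope genes Lor (-0.17) and Tgm1 (-0.37, with FGF2 at the floor). Sprr2h read 695 untreated, 5874 with IL-17A, 682 with FGF2 and 6415 with both (8.62-fold). Its probe set can detect related transcripts, and Sprr2 genes are near copies of each other. Sprr2f read 768 untreated, 3589.8 with IL-17A, 1045 with FGF2 and 6091 with both (3.44-fold), and Sprr2d was at the floor untreated and read 417 with IL-17A, 90.5 with FGF2 and 587 with both (4.60-fold). In these 3 genes the arrays with IL-17A were high and the others low. Sprr2k had a ratio of -0.47, and Sprr1a, the brightest gene of the cluster, of 0.04.

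The promoters of Sprr2d and Sprr2h are shown because they hold the same AP-1 motif as the metalloproteinases above while the genes differed in the opposite direction. The stretches are chr3:92338937-92339139 and chr3:92385477-92385684 on the plus strand, up to the start, with the motif in capitals.
Sprr2d: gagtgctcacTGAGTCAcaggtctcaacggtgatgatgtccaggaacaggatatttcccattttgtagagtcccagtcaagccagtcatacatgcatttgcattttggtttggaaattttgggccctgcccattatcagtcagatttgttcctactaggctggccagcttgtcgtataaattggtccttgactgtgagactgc
Sprr2h: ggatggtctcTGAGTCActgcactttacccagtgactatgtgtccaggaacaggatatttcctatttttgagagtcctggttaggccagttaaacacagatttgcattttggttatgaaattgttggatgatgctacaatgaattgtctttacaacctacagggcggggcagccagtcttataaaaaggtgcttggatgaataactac
The match ends 187 bases before the start in Sprr2d and 192 in Sprr2h, farther out than in the metalloproteinases. The 250 bases before the start of Sprr2d, Sprr2h, Mmp3 and Mmp10 also hold the C/EBP motif, which is not marked in their stretches.

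The Clca genes of chromosome 3, which encode secreted regulators of chloride channels, were also split. Clca3b read 637 untreated, 2784 with IL-17A, 648 with FGF2 and 2554 with both (4.29-fold). Its neighbours Clca3a1 (-1.30, from a probe set that can detect related transcripts), Clca3a2 (-1.66) and Clca4b (-1.06) were lower with FGF2 too. By contrast, Clca4a had 0.23. Clca2 was over the floor with FGF2 alone (104), with a ratio of at least 0.21. Clca4b, at least 2-fold apart though only 1.63-fold from untreated with FGF2 and 1.28-fold with IL-17A, shows how a gap can come from both sides. Clca1, a goblet cell product, had a ratio of -0.70. Plet1, a surface protein of progenitor cells, read 2413 untreated, 6783 with IL-17A, 2315 with FGF2 and 6827 with both (2.93-fold), and Muc1, a membrane mucin, 111 untreated, 425 with IL-17A, 144 with FGF2 and 516 with both (2.96-fold). Of the 7 measured mucins Muc1 alone passed 2-fold (1.04% of all measured genes were at least 2-fold lower), and their median was -0.06. Prl2a1, of the prolactin family, read 512 untreated, 3451 with IL-17A, 417 with FGF2 and 3289 with both (8.29-fold).

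**Figure D4:**
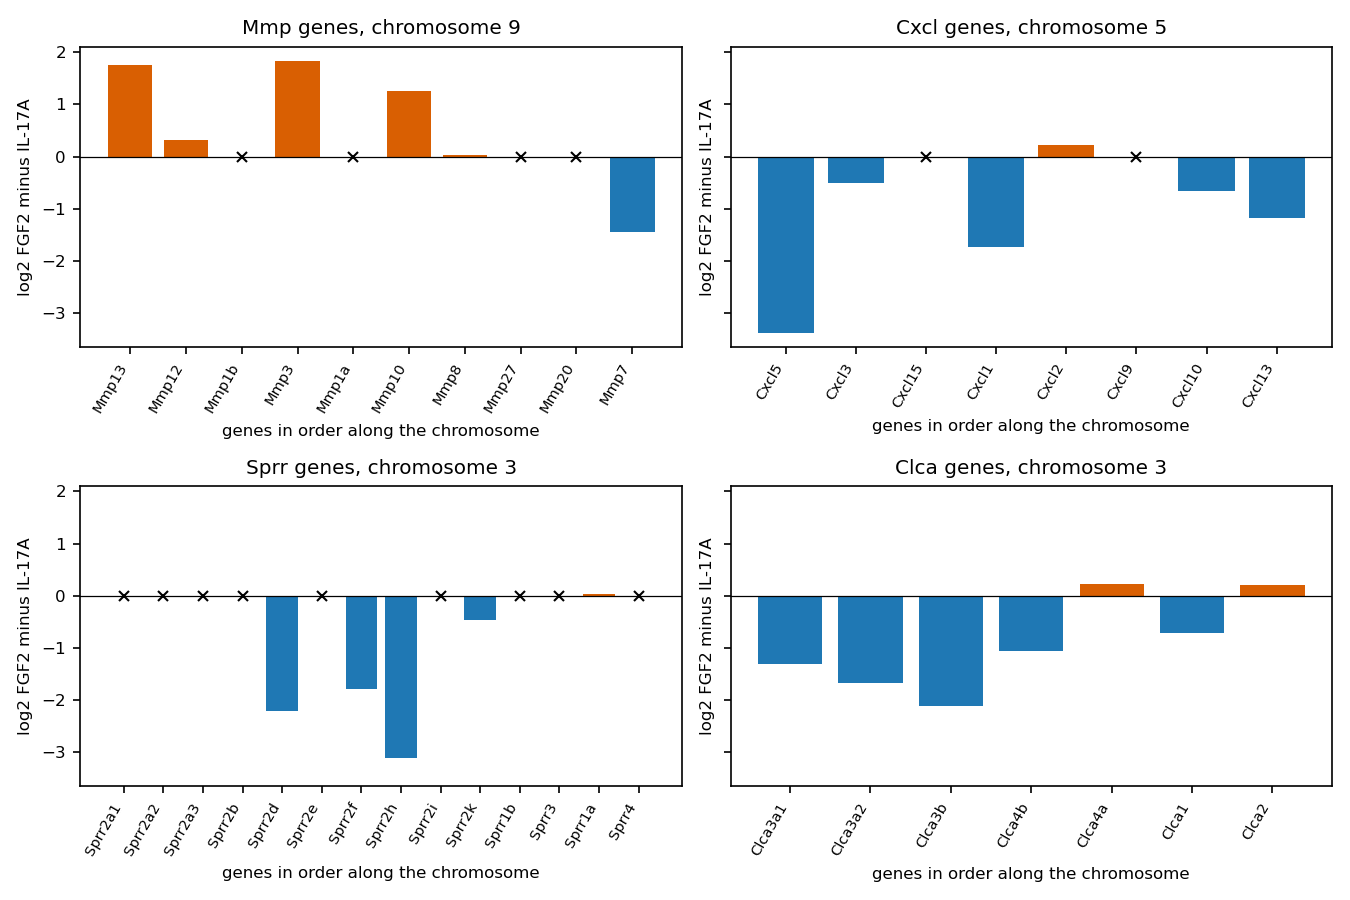
Bars give log2 FGF2 minus log2 IL-17A (vertical axis) for the genes of 4 chromosomal clusters in their order along the chromosome, orange where FGF2 is higher and blue where it is lower; a cross marks a gene at the floor on both arrays or with no probe set of its own. Mmp13, Mmp3 and Mmp10 stand above 1 while Mmp7 lies at -1.45, and of the Cxcl genes Cxcl5 and Cxcl1 lie at -3.38 and -1.73 while Cxcl2 lies at 0.22.

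The 13 genes that went opposite ways held 5 of the 15 largest folds on the lower side. The size of this class depends on its limits: a narrower band around untreated than 1.5-fold gave 36 genes and a 2-fold band gave 2, both chosen after seeing the data. Besides Saa3 and Steap4 they included Ifitm1, an interferon-induced membrane protein, with 1882 untreated, 3791 with IL-17A, 453 with FGF2 and 1079.9 with both (8.38-fold). Ptx3, a soluble pattern recognition protein, read 358 untreated, 681 with IL-17A, 141 with FGF2 and 381 with both (4.82-fold). Cp, the ferroxidase ceruloplasmin, read 983 untreated, 2557 with IL-17A, 599 with FGF2 and 1160.3 with both (4.27-fold), and its 7 other probe sets all had the same sign. For Ifitm1, Ptx3 and Cp the combined array lay between the single factors. The others, named after their values were seen except Mmp7, were C1s1, Serpina3n, Cyp7b1, Nrxn3, Ggt5, Mmp7, Rgs4 and Creb3l1, with ratios from -2.01 to -1.23. Interferon-stimulated genes as a list did not follow Ifitm1: of 27 measured, 9 were above 0 and 18 below, with a median of -0.10. Gbp3 (-1.07) was the only other one past 2-fold (1.04% of all measured genes were at least 2-fold lower).

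The 71 genes that were low with FGF2 and near untreated with IL-17A included Agt, Dpt, Igf1, Aldh1a1 and Adamdec1. By size of ratio the order in this class was Agt, Dpt, Itih5 (-2.04), Igf1, Rims1 (-1.95, with FGF2 at the floor), Aldh1a1 and Adamdec1, and Itih5 and Rims1 were named after their values were seen. Agt, angiotensinogen, read 594 untreated and 422 with IL-17A and was at the floor on both arrays with FGF2 (at least 4.71-fold). Dpt, the matrix protein dermatopontin, read 1231 untreated, 1230.2 with IL-17A, 274 with FGF2 and 330.1 with both (4.50-fold). Igf1, insulin-like growth factor 1, read 2466 untreated, 1968 with IL-17A, 485 with FGF2 and 452 with both (4.06-fold), with its 3 other probe sets of the same sign. Aldh1a1, which makes retinoic acid, read 869.9 untreated, 611 with IL-17A, 166 with FGF2 and 119 with both (3.67-fold). Adamdec1, very bright without FGF2, read 11129.7 untreated, 9843 with IL-17A, 2849.9 with FGF2 and 2118 with both (3.45-fold). In all of these both arrays with FGF2 were low and both without it high. Tmem176b, a membrane protein, was the brightest of all separated genes on the lower side, with 9525 untreated, 10970.4 with IL-17A, 4649 with FGF2 and 6443 with both (2.36-fold).

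Stromal lists leaned the same way, though most of their members did not reach 2-fold. At least 2-fold lower were 3 of 22 matrix genes and 2 of 22 fibroblast and smooth muscle markers, against 1.04% of all measured genes. Of 22 measured genes of fibrillar matrix and proteoglycans, 21 had a ratio below 0 and 1 above, with a median of -0.47. At least 2-fold lower were Dpt, Aspn (-1.57) and Ogn (-1.19), the last 2 small leucine-rich proteoglycans. Col1a1, a chain of type I collagen, did not reach 2-fold (-0.98). Of 22 measured fibroblast and smooth muscle markers, 18 were below 0, with a median of -0.51, and the contractile genes Cnn1 (-1.33) and Lmod1 (-1.09) passed 2-fold. The other 4 were at or above 0: Synm (0.65), Pdgfrb (0.23), Vim (0.22) and Cd34 (0.00). The summed signal of the markers was 131338 untreated, 136343 with IL-17A, 109035 with FGF2 and 109593 with both, 0.80 times as much with FGF2 as with IL-17A. The glial gene Gfap (-1.70) was lower too, while the median of 12 glial and neuronal markers was -0.05. Whether the amount of stromal RNA has a part in the low signals of these genes was not tested.

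The other cell type lists were read the same way. All 15 endothelial markers had ratios above 0, with a median of 0.36 and a range of 0.08 to 0.78, and none passed 2-fold; their summed signal was 13542 untreated, 12727 with IL-17A, 17398 with FGF2 and 19157 with both, 1.37 times as much with FGF2 as with IL-17A. Of 14 measured enterocyte markers, 10 were above 0, with a median of 0.34, led by the apolipoproteins Apob (0.87) and Apoa4 (0.72). The 4 below 0 were Mep1b (-0.76), Slc26a3 (-0.29), Slc15a1 (-0.13) and Anpep (-0.07). The summed signal of the enterocyte markers was 28414 untreated, 14776 with IL-17A, 21704 with FGF2 and 10863 with both. It was thus lower than untreated on each treated array and 1.47 times as high with FGF2 as with IL-17A. A large part of this sum came from the apolipoprotein Apoa1, with 6771 with IL-17A and 10645 with FGF2. The part of these cell types in other results was not tested. Of 11 goblet markers 8 were below 0 (median -0.29), led by the transcription factors Atoh1 (-0.87) and Spdef (-0.75, with FGF2 at the floor). The 3 above 0 were Muc2 (0.03), Spink4 (0.04) and Retnlb (0.26, with IL-17A at the floor). All 5 measured tuft markers were below 0 (median -0.40). Among 12 macrophage markers 11 were below 0 and Cd14, a receptor for lipopolysaccharide, was the exception, with 862 untreated, 1318 with IL-17A, 2639.9 with FGF2 and 3081 with both. General epithelial markers were balanced, with 8 above and 8 below 0, from Cdx1 (-0.59) to Elf3 (0.31).

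Cell cycle genes were shifted together by small amounts. Of 25 measured G2/M genes, 23 had a ratio above 0, with a median of 0.37, and of 24 genes of G1/S and replication, 21, with a median of 0.29. None passed 2-fold in either list. Ube2c, which marks mitotic proteins for degradation, had the largest ratio (0.81), with 1359.7 untreated, 1251 with IL-17A, 2198 with FGF2 and 1634 with both. Mki67, a marker of cycling cells, had 0.43. Ribosomal protein genes (18, median -0.01) and glycolysis genes (21, median -0.01) lay at the median of all genes.

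**Figure D5:**
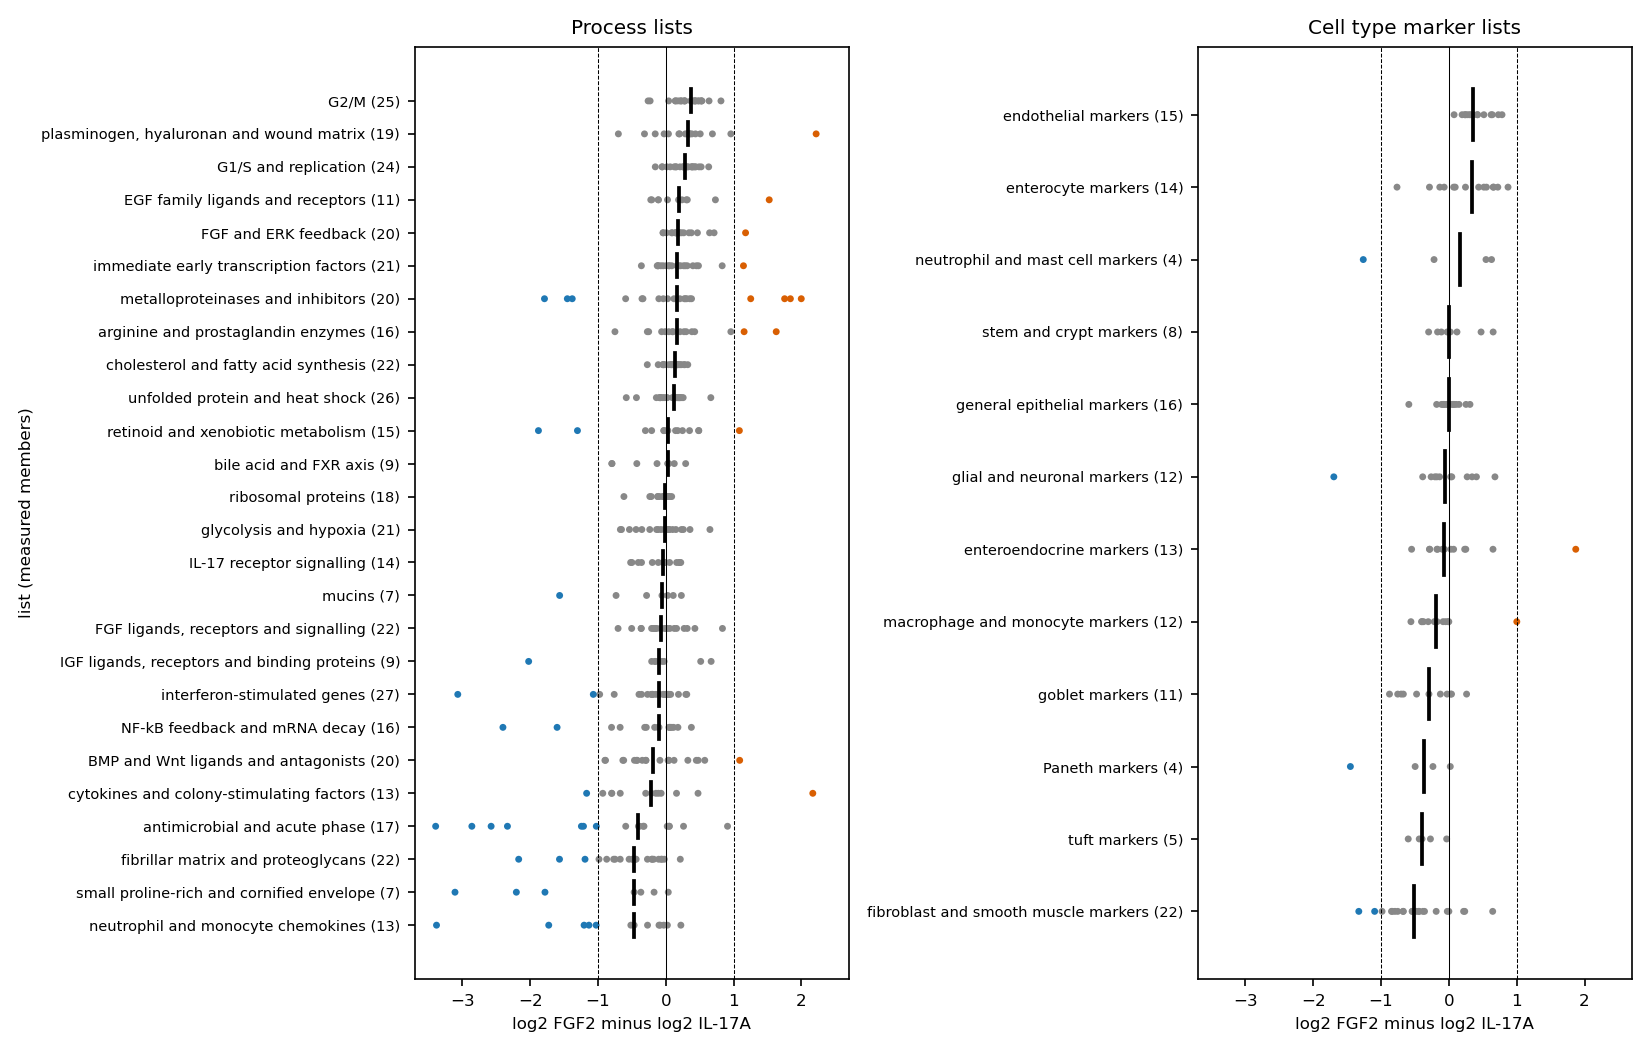
Log2 FGF2 minus log2 IL-17A (horizontal axis) of each measured member of the process lists (left) and cell type marker lists (right), with the number measured in brackets, a black bar at the list's median, dashed lines at 2-fold, orange points past 2-fold higher and blue points past 2-fold lower with FGF2. Chemokine, small proline-rich and cornified envelope, fibrillar matrix, antimicrobial and fibroblast lists have medians between -0.51 and -0.40. The G2/M, endothelial and enterocyte lists lie between 0.34 and 0.37.

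The array with both factors shows which single factor each gene resembled. Of the 47 genes higher with FGF2, 45 were nearer the FGF2 array on the log2 scale when both were given, and 19 of the 47 exceeded both single factors. Of the 124 genes lower with FGF2, 72 were nearer FGF2 and 52 nearer IL-17A. The split followed the side on which the gap arose. Of the 71 genes that were low with FGF2, 56 stayed nearer FGF2 and 24 were below both single factors. Of the 37 genes that were high with IL-17A, 27 stayed nearer IL-17A and 11 exceeded both, among them Zc3h12a, Sprr2d, Sprr2f and Cxcl5. The 13 genes with opposite changes were divided, 6 nearer FGF2 and 7 nearer IL-17A, and 12 of them lay between the single factors.

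Motif letters were counted in the 250 bases before the start for 9617 measured genes whose symbol had a promoter in the RefSeq table. The AP-1 motif was found in 5 of 30 genes higher with FGF2 (16.7%), in 11 of 41 genes that were lower with FGF2 and above untreated with IL-17A (26.8%), in 6 of 51 genes that were low with FGF2 and near untreated with IL-17A (11.8%), and in 5.79% of all measured genes. The C/EBP motif was found in 36.7%, 61.0%, 39.2% and 32.2% of the same sets. The NF-kB consensus was found in 13.3%, 19.5%, 9.80% and 10.9%, the STAT motif TTCNNNGAA in 3.33%, 7.32%, 9.80% and 7.05%, and the SRF CArG box in 0%, 0%, 1.96% and 1.55%. Median GC content of the windows differed as well, 59.3%, 50.8%, 55.6% and 60%, and its part in the shares was not tested. Matches of different motifs overlapped in at most 0.385% of measured genes (NF-kB with C/EBP). The sets are small, 5 genes behind the first AP-1 share, and no test was made.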

How the data were processed

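The values were deposited as log2 signals, 1 per probe set and array, which the authors summarised with MAS5 per the submitters' processing notes (version not given in the sources used here). On the linear scale, the 2% trimmed mean of each array rounded to 499.8, which shows a common scaling. MAS5 subtracts mismatch signals, so dim values are noisy. Of 45101 probe sets, 64 controls were left out. The platform annotation gave 1 symbol to 34945, several to 932 and none to 9160, and the latter 2 kinds entered no result. Of the symbols, 34741 matched the GRCm38.p6 gene table and 0 changed. The brightest probe set (mean log2 over the 4 arrays) stood for a gene. Signals under the median of all signals (log2 6.49) were raised to it, and ratios from floored signals are lower bounds in size.

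With 1 array per group, no replicate error, test, p-value or interval was available. The number of arrays limits the precision, as does the noise of dim signals. A list is described by counts and medians, to be read beside those of all measured genes. Of these, 6068 had a ratio above 0 and 5850 below, and the median was 0.01. At least 2-fold higher were 0.394% and at least 2-fold lower 1.04%.

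The contrast, the 40 gene lists (753 entries, 67 without a gene) and the rules were chosen with earlier results of these data known. Named were the 15 highest and 15 lowest ratios past 2-fold whose other probe sets over the floor had the same sign, the 5 strongest opposite changes, the 5 brightest genes each way, and list members. Other genes were chosen after their values were seen, among them those in full lists of a class, the Clca and Cxcl13 genes and those under other observations. Of the 171 genes, 49 were in a list and 122 in none; 1 with a gene-model symbol was counted and not named.

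Promoters were the 250 bases before each RefSeq start (GRCm38.p6), searched on both strands. Python 3.11.15, numpy 2.4.6, pandas 2.3.3 and matplotlib 3.10.9 were used, and the calculations were tested on simulated data. Alternatives were other scalings, floors, probe set rules and fold thresholds.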

Additional observations from a re-analysis of the deposited data

How the results depend on the processing

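The number of genes past 2-fold depended on the treatment of dim signals. With the floor at the 25th percentile, 219 genes were higher with FGF2 and 427 lower. Raised to the 75th percentile, it gave 20 and 47, by construction a matter of which dim genes can pass. With the floor added to every signal, which shrinks ratios of dim genes, 30 and 76 passed. A 1.5-fold threshold gave 289 and 505, and a 3-fold threshold 18 and 35. In another setting, probe sets with names ending in x_at, s_at or a_at were left out, among them those of Saa3, Lcn2 and Cck. This setting, other scalings and the mean of all probe sets gave 36 to 51 higher and 92 to 124 lower. Of the 171 genes, a value was available for 101 with the highest floor, 150 without such probe sets and 171 otherwise. These genes changed sign in 0 cases. Still past 2-fold were 171 with median centring, 166 with quantile scaling and 140 of 150 without such probe sets. With the mean of probe sets 123 stayed, with the floor added 100 and with the highest floor 67 of 101. With the lowest floor 171 stayed. The higher share of the 2-fold genes was 27.5% as reported and 27.0% to 33.9% otherwise, and the median of all measured genes moved by at most 0.02.

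List medians kept their sign under these settings where they were at least 0.1 in size, with 4 exceptions. BMP and Wnt genes (-0.19) gave 0.03 and Paneth markers (-0.37) gave 0.02 with the floor at the 75th percentile. Lymphocyte markers (0.19) gave -0.37 with the floor at the 25th percentile and -0.04 with the floor added. Neutrophil and mast cell markers (0.16) gave -0.03 with the floor at the 25th percentile and -0.32 without probe sets ending in x_at, s_at or a_at. The cause was not tested. The classes against untreated used 1.5-fold. With a narrower band and with 2-fold, chosen after seeing the data, the 35 genes above untreated with FGF2 and within with IL-17A became 25 and 30, the 37 above with IL-17A and within with FGF2 25 and 26, the 13 with opposite changes 36 and 2, and the 71 below with FGF2 and within with IL-17A 48 and 58. No paired analysis was possible because each group has 1 array.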

Other observations

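The following genes were looked up after their values had been seen, apart from those of the gene lists. Ramp3 was accompanied by Calcb, a calcitonin gene-related peptide, with 349 untreated, 239.6 with IL-17A, 744 with FGF2 and 551 with both (3.10-fold higher with FGF2). Other genes of this receptor system did not separate: Ramp1 had a ratio of -0.17, Ramp2 0.07 and the receptor Calcrl 0.02, and the ligand adrenomedullin, Adm, had -0.65. Vgf, a neuropeptide precursor, read 178 untreated, 157 with IL-17A, 412 with FGF2 and 346 with both (2.63-fold higher with FGF2), and Nptx1, a neuronal pentraxin at the floor without FGF2, read 233 with FGF2 and 196 with both (at least 2.60-fold). Thbd, thrombomodulin, read 1650.1 untreated, 1584 with IL-17A, 4479 with FGF2 and 4803 with both (2.83-fold), and the protease inhibitor Tfpi2 read 667 untreated, 684 with IL-17A, 1520.5 with FGF2 and 1901 with both (2.22-fold).

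The complement genes looked up here all had ratios below 0, of differing size. C1s1 read 324 untreated, 517 with IL-17A, 128 with FGF2 and 218 with both (4.02-fold), C1ra 131 untreated, 198 with IL-17A, at the floor with FGF2 and 106 with both (at least 2.21-fold), and Serping1, the inhibitor of both proteases, 5074 untreated, 6266 with IL-17A, 2389 with FGF2 and 3265 with both (2.62-fold), all lower with FGF2. C1qa (-0.30), C1qb (-0.56), C1qc (-0.01), C2 (-0.22) and Cfb (-0.40) did not reach 2-fold. Genes of retinoid and xenobiotic metabolism were split, with a median of 0.03 over 15: Aldh1a1 (-1.88) and Cyp1b1 (-1.30) were lower with FGF2, and Cyp3a11, a drug-metabolising enzyme, read 485 untreated, 133 with IL-17A, 282 with FGF2 and 135 with both (2.12-fold higher). Cyp3a11 was below untreated on the 3 treated arrays and lowest on those with IL-17A. Of 20 measured BMP and Wnt genes Bmp2 alone passed 2-fold (0.394% of all measured genes were at least 2-fold higher). Rspo3, a Wnt enhancer (-0.89), and Dkk3 (-0.90) did not reach 2-fold on the lower side. Ehf, an epithelial ETS factor, read 359 untreated, 639 with IL-17A, 311 with FGF2 and 571 with both (2.05-fold lower with FGF2), and Noxo1, which organises the oxidase Nox1, read 552 untreated, 1784 with IL-17A, 621 with FGF2 and 1583 with both (2.87-fold).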
